A study of Mus musculus with 4 samples.

Results

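The BCL2 family is a set of related proteins that decide at the mitochondrial outer membrane whether a cell enters apoptosis. Its 10 best known members were taken here from a table of 22063 mouse genes by their gene symbols: the anti-apoptotic Mcl1, Bcl2 and Bcl2l1 (BCL-XL), the effectors Bax and Bak1, and the BH3-only genes Bid, Bad, Bbc3 (PUMA), Pmaip1 (NOXA) and Bcl2l11 (BIM). RNA was sequenced from ID8, a mouse ovarian cancer cell line, carrying a control shRNA (shCtrl, labelled wild type, 2 libraries) or an shRNA against USP9X (shUSP9X, labelled as a knockdown, 2 libraries). Total counts per library were 17232006 and 15611363 (shCtrl) and 19978889 and 17021261 (shUSP9X). The study lists 2 mouse shRNAs against USP9X, and the labels do not say which of them these cells carried. The study's methods give a standard incubator for its cells outside hypoxia experiments, and the labels of these libraries name neither TGF-β nor an oxygen level. The labels do not say whether the libraries of a group came from separate cultures, so the p-values below measure only the spread between these libraries.

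In a living cell the anti-apoptotic proteins bind and restrain BAX and BAK, the effectors that form pores in the outer membrane and let cytochrome c out. The BH3-only proteins sense stress and either occupy the anti-apoptotic proteins or activate the effectors directly. USP9X is a deubiquitinase known to remove ubiquitin chains from MCL1 protein and so to slow its breakdown, a step that mRNA counts do not measure. The comparison asks how the mRNAs of the family stood in the cells with the USP9X shRNA.

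Levels are given as CPM, a gene's count relative to its library's total after TMM scaling, and each change as log2 of shUSP9X over shCtrl from the quasi-likelihood test of edgeR, adjusted by Benjamini-Hochberg over the 11448 genes tested. A change was called at an adjusted p under 0.05. All 10 members passed the filter on low counts. Of them, 5 were called higher (Bak1, Bid, Bax, Bcl2l1 and Bad) and 4 lower (Bcl2, Bcl2l11, Pmaip1 and Mcl1), and Bbc3 was not called. Over all genes tested, 33.8% were called higher and 33.6% lower, so a call by itself was common in this comparison. The study's own cutoff, an unadjusted p under 0.05 with a fold change above 1.5, kept Bcl2 among the lower genes and Bak1 among the higher ones and none of the other 8, beside 18.7% of all genes lower and 10.8% higher. The groups did not overlap for any of the 10 members, 5 higher and 5 lower, and over all genes tested 41.2% lay apart with shUSP9X higher and 41.0% with shUSP9X lower. The median log2 change of the 10 members was 0.08 (0.036 without shCtrl replicate 1 and -0.0074 on log2(FPKM + 1)), beside -0.00051 for all genes tested.

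Usp9x itself, the gene the shRNA targets (ENSMUSG00000031010), checked the labels. It had 298 and 282 CPM in the shCtrl libraries and 19.7 and 20.5 CPM in the shUSP9X libraries. Both knockdown libraries were far below both controls, and the log2 change was -3.85 (SE 0.06), a 14.4-fold lower level, with an adjusted p of 4.66e-26 in edgeR's quasi-likelihood test.

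**Figure D1:**
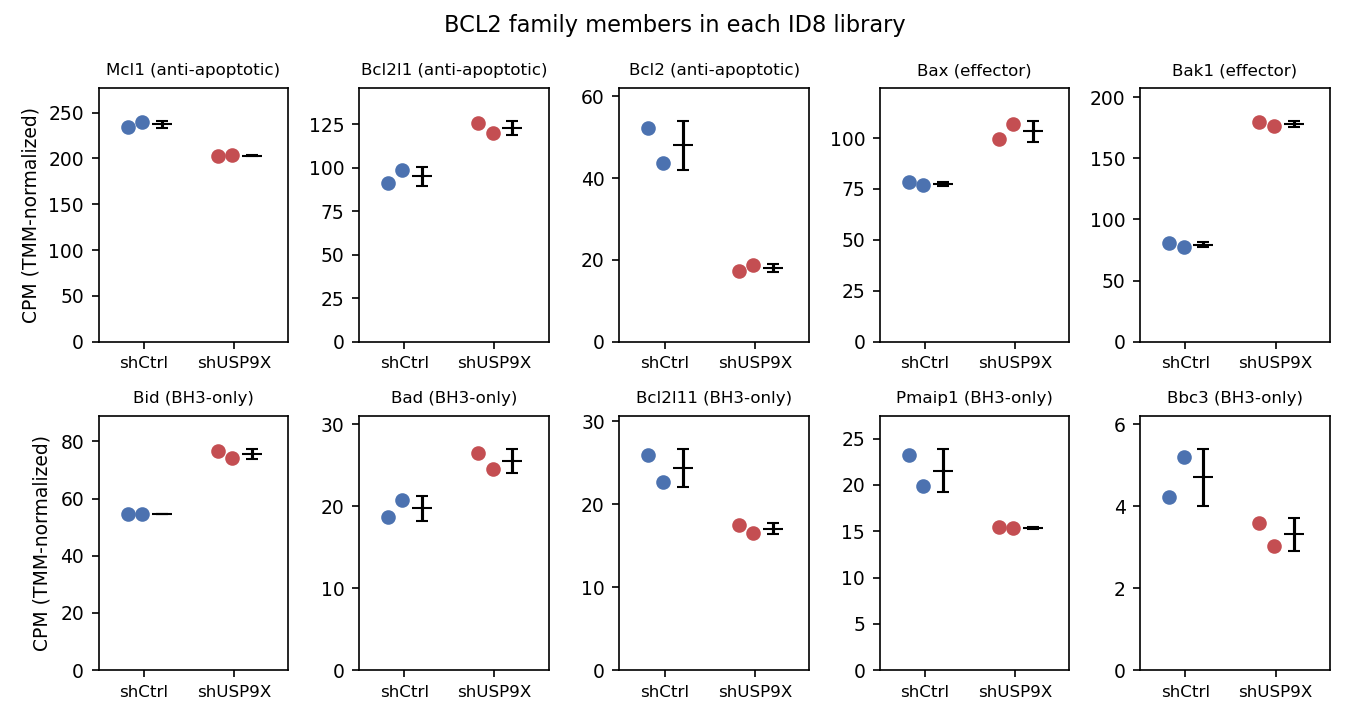
CPM of each member (vertical axis, TMM-normalized, starting at 0) in the 2 shCtrl libraries (blue) and the 2 shUSP9X libraries (red), with the group mean and SD as black bars. In every panel the points of the groups lie apart. Bak1 goes from 80.8 and 77.7 to 179.9 and 176 CPM, and Bcl2 from 52.3 and 43.8 to 17.4 and 18.8 CPM.

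Among the anti-apoptotic members, Bcl2 fell, Mcl1 fell slightly and Bcl2l1 rose. Mcl1, whose short-lived protein is a client of USP9X, is ENSMUSG00000038612 at chr3:95658788-95663176 (GRCm38, plus strand). It had 234 and 239.9 CPM in shCtrl and 202 and 203 CPM in shUSP9X, the most counts of any member in all 4 libraries. The shUSP9X libraries were a little below the controls and lay close together, with means of 237 ± 4.19 and 203 ± 0.739 CPM (SD, n = 2). The log2 change was -0.22 (SE 0.04, 95% interval -0.31 to -0.14), with an adjusted p of 2.87e-05. Among all genes tested, 35.6% had a lower log2 change than Mcl1.

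Bcl2, the founding anti-apoptotic gene of the family (ENSMUSG00000057329, chr1:106538178-106714274, minus strand), had 52.3 and 43.8 CPM in shCtrl and 17.4 and 18.8 CPM in shUSP9X. Every knockdown value was under every control value, and the 2 controls differed from each other more than the 2 knockdown libraries did (48.0 ± 6.04 against 18.1 ± 0.998 CPM, SD, n = 2). The level was 2.66-fold lower, a log2 change of -1.41 (SE 0.10, 95% interval -1.61 to -1.21), with an adjusted p of 8.97e-13. Of the genes tested, 6.19% had a lower log2 change than Bcl2. When each library's trend on GC content and transcript length was removed, the log2 change of Bcl2 was -0.89 (adjusted p 7.65e-09). An annotated antisense gene, D630008O14Rik, spans 33103 bases of Bcl2, and Gm37053 shares 2087 bases with it on the same strand, and neither was analysed here. The 3 genes whose profiles over the 4 libraries were most like that of Bcl2, by Euclidean distance between centred log2 CPM, were Tbc1d32 (0.0537), Megf9 (0.0588) and Ccp110 (0.0631). With the GC content and length correction, the log2 changes of these 3 were -0.25, -0.33 and -0.46 beside -0.89 for Bcl2.

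Bcl2l1 encodes BCL-XL, an anti-apoptotic protein of the outer membrane (ENSMUSG00000007659, chr2:152780668-152831728, minus strand). Its levels were 91.3 and 98.9 CPM in shCtrl and 126 and 120.2 CPM in shUSP9X. Both knockdown libraries were above both controls. It rose by 0.37 on the log2 scale (SE 0.05, 95% interval 0.27 to 0.48, adjusted p 6.2e-07), and 0.16 (adjusted p 0.00426) with the GC content and length correction.

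Both effectors rose. Bak1, which encodes the effector BAK that resides on the outer membrane (ENSMUSG00000057789, chr17:27019810-27029009, minus strand), had 80.8 and 77.7 CPM in shCtrl and 179.9 and 176 CPM in shUSP9X. The replicates lay within a few CPM of each other in each group, and the knockdown libraries stood far above the controls (79.3 ± 2.21 against 178 ± 2.65 CPM, SD, n = 2). The log2 change was 1.17 (SE 0.05, 95% interval 1.07 to 1.27), a 2.24-fold higher level, with an adjusted p of 3.14e-17. Of the 11448 genes tested, 309 (2.7%) had a higher log2 change than Bak1. It was 0.95 with the GC content and length correction (adjusted p 2.45e-15). Bak1 lies within Ggnbp1 on the opposite strand, which had 5, 9, 4 and 9 counts in the 4 libraries.

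Bax encodes the effector that moves from the cytosol to mitochondria on activation (ENSMUSG00000003873, chr7:45461697-45466898, minus strand). It had 78.2 and 76.9 CPM in shCtrl and 99.7 and 107 CPM in shUSP9X. The controls differed by about 1 CPM and both lay below the knockdown libraries. Gm45808, which shares 915 bases with Bax on the same strand, had 0 counts in all 4 libraries. Bax rose by 0.41 on the log2 scale (SE 0.05, 95% interval 0.30 to 0.53, adjusted p 2.47e-07), and 0.23 (adjusted p 5.72e-04) with the GC content and length correction.

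**Figure D2:**
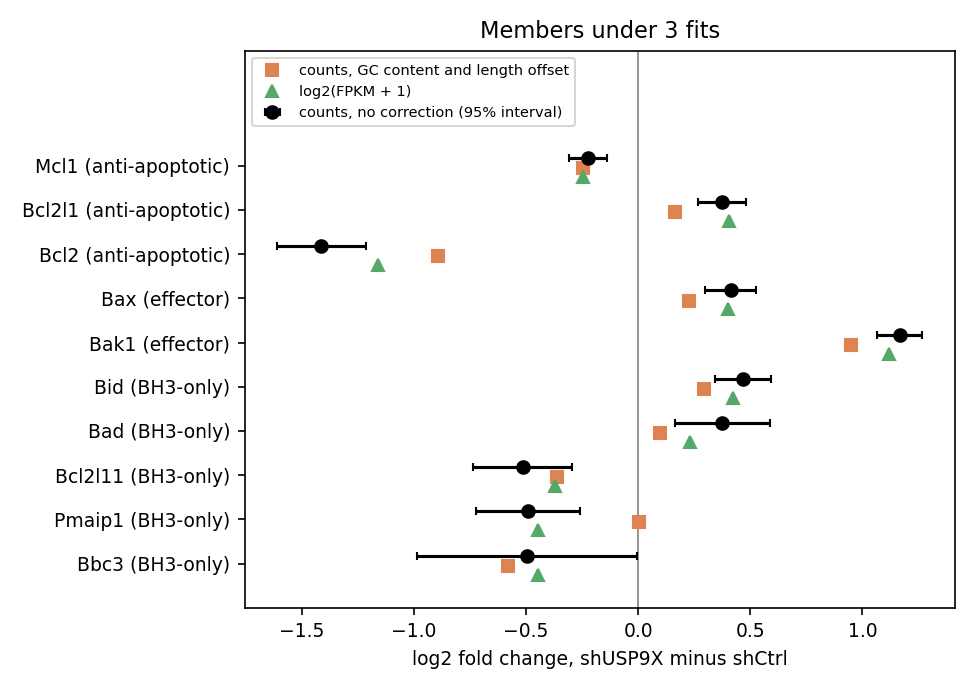
Log2 fold change of each member, shUSP9X minus shCtrl (horizontal axis), from the counts with its 95% interval (black), from the counts with a GC content and length correction (orange squares), and from log2(FPKM + 1) (green triangles). The correction moves Bcl2 from -1.41 to -0.89 and Pmaip1 from -0.49 to 0.0025, and Bak1 keeps a change of 0.95.

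The BH3-only members split. Bid, whose protein links death receptors to mitochondria once caspase-8 has cut it (ENSMUSG00000004446, chr6:120891930-120916853, minus strand), had 54.7 and 54.7 CPM in shCtrl and 76.7 and 74.3 CPM in shUSP9X. The controls were nearly equal and the knockdown libraries higher, with a log2 change of 0.47 (SE 0.06, adjusted p 1.7e-07), and of 0.29 (adjusted p 9.4e-05) with the GC content and length correction. Its end overlaps Bcl2l13 on the opposite strand over 913 bases, and since the counting is not stated to use strand, reads there cannot be told apart. Gm44260, annotated on the same strand, shares 2094 bases with Bid and was not analysed here.

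Bad, whose protein binds BCL2 and BCL-XL unless survival kinases phosphorylate it (ENSMUSG00000024959, chr19:6941861-6951899, plus strand), had 18.7 and 20.8 CPM in shCtrl and 26.6 and 24.5 CPM in shUSP9X. The groups lay apart by less than 4 CPM. The log2 change was 0.37 (SE 0.10, adjusted p 0.00232). The call was lost on log2(FPKM + 1), with a log2 change of 0.23 and an adjusted p of 0.058 in limma, and with the GC content and length correction, with 0.10 and an adjusted p of 0.403. Bad shares 620 bases with Gpr137 on the opposite strand. Gpr137 had 159 and about 127 counts in shCtrl and 216 and about 189 in shUSP9X. As the counting is not stated to use strand, reads in the shared bases cannot be told apart.

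Bcl2l11 encodes BIM, a BH3-only protein that binds all anti-apoptotic members (ENSMUSG00000027381, chr2:128126038-128162547, plus strand). It had 25.9 and 22.7 CPM in shCtrl and 17.5 and 16.6 CPM in shUSP9X, so both knockdown libraries lay under both controls. It fell by 0.51 on the log2 scale (SE 0.11, adjusted p 1.5e-04), and the change was -0.36 (adjusted p 0.00435) with the GC content and length correction.

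Pmaip1 encodes NOXA, which binds mainly MCL1 (ENSMUSG00000024521, chr18:66458533-66465565, plus strand). Its levels were 23.2 and 19.9 CPM in shCtrl and 15.4 and 15.3 CPM in shUSP9X. The knockdown libraries were alike and both lay under the controls, which were farther apart. The log2 change was -0.49 (SE 0.11, adjusted p 4.3e-04), but with the GC content and length correction it was 0.0025, with the sign turned and an adjusted p of 0.985.

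Bbc3 encodes PUMA, a p53 target that binds all anti-apoptotic members (ENSMUSG00000002083, chr7:16308393-16318205, plus strand). It was the least abundant member, with counts of 73 and 82 (shCtrl) against 71 and 51 (shUSP9X), or 4.21 and 5.19 against 3.59 and 3.03 CPM. The groups did not overlap, but the change of -0.50 on the log2 scale had a wide interval (-0.98 to -0.0068) and missed the threshold after adjustment (adjusted p 0.068). It passed on log2(FPKM + 1) (limma, adjusted p 0.0417) and with the GC content and length correction (adjusted p 0.0322), but not in DESeq2 (adjusted p 0.298). The change was -0.63 without shCtrl replicate 1, -0.34 without shCtrl replicate 2 and -0.37 without shUSP9X replicate 2.

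The direction of the members followed the base composition of their transcripts with Bbc3 as the exception. The 5 members called higher have longest transcripts of 50.4% to 63.5% GC, the 4 called lower of 42.1% to 48.7%, and Bbc3 has 65.2%. Across the genes tested the log2 change rose with GC content (Spearman 0.447) and fell with transcript length (Spearman -0.331), correlations across genes of the same 4 libraries and not across replicates. The cause of this trend was not tested. With the trend removed, 7 of the 10 members (Mcl1, Bcl2, Bcl2l1, Bax, Bak1, Bid and Bcl2l11) stayed called in the same direction, and the log2 change of Usp9x, the gene under the shRNA, shrank from -3.85 to -2.09. With this correction, 2927 of the 11448 genes tested were called lower and 4421 higher, so a call stayed common. Lower genes were then 39.8% of all called genes, beside 49.9% without the correction, and the median log2 change of all genes was 0.07 with it.

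Levels of different genes were compared per transcript length, on the deposited FPKM scale (fragments scaled by transcript length and library size). In shCtrl the level ran from Bax at 86.1 ± 0.105 FPKM (SD, n = 2) through Mcl1 (72.7 ± 5.38), Bak1 (47.8 ± 3.25), Bcl2l1 (41.2 ± 1.11), Bid (25.3) and Bad (21.8 ± 2.57) down to Pmaip1 (7.99 ± 0.794), Bcl2 (6.88 ± 0.819), Bcl2l11 (5.77 ± 0.452) and Bbc3 (3.01 ± 0.485). Pmaip1 and Bcl2, and Bcl2 and Bcl2l11, did not differ beyond their SDs. In shUSP9X, Bak1 stood second, at 105 ± 5.35 FPKM, next to Bax at 114 ± 6.29 and ahead of Mcl1 at 61.2 ± 3.18. The SDs of Bax and Bak1 there overlapped. Bcl2 moved below Bcl2l11, with 2.51 ± 0.131 against 4.26 ± 0.721 FPKM, and the other members kept their ranks.

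**Figure D3:**
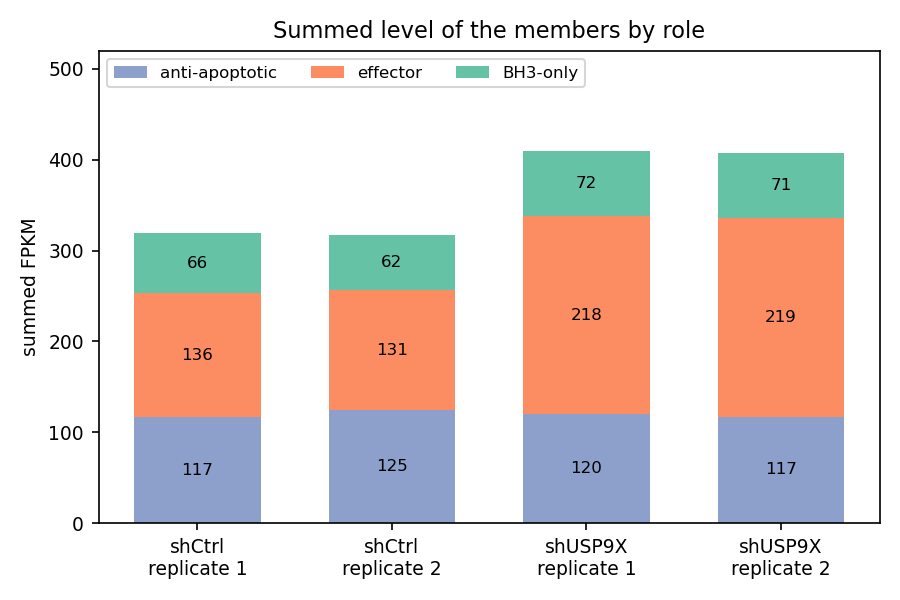
Summed FPKM of the members by role (vertical axis, stacked, starting at 0) in each of the 4 libraries. The effector segment grows from 136 and 131 to 218 and 219 FPKM, while the anti-apoptotic segment stays between 117 and 125 FPKM.

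Summed by role, the 2 effectors held 136 and 131 FPKM in shCtrl and 218 and 219 FPKM in shUSP9X, a log2 ratio of 0.71. The 3 anti-apoptotic members summed to 117 and 125 FPKM in shCtrl and 119.8 and 117 FPKM in shUSP9X, and these groups overlapped. The rise of Bcl2l1 and the falls of Mcl1 and Bcl2 thus left the FPKM sum within the spread of the controls. In CPM, which does not divide by length, the same sum was 378 and 383 against 346 and 343, with no overlap. The 5 BH3-only members summed to 66.2 and 61.5 FPKM in shCtrl and 72.4 and 71.0 FPKM in shUSP9X. As a share of the FPKM of all 10 members, the effectors made up 42.7% and 41.4% in shCtrl and 53.1% and 53.8% in shUSP9X. The anti-apoptotic share went from 36.6% and 39.3% to 29.2% and 28.8%. These sums and shares were not computed with the GC content and length correction. With it the log2 changes were -0.25 for Mcl1, -0.89 for Bcl2 and 0.16 for Bcl2l1, and 0.95 for Bak1 and 0.23 for Bax.

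Ratios of 2 genes within a library do not depend on how libraries were scaled. The log2 ratio of Mcl1 to Bak1 counts, an inhibitor and the effector it binds, was 1.53 and 1.63 in shCtrl and 0.17 and 0.21 in shUSP9X, a difference of -1.39 between the group means. For Bcl2 to Bax it was -0.58 and -0.81 against -2.52 and -2.51, a difference of -1.82, and of -1.12 between their log2 changes with the GC content and length correction. In both pairs the knockdown libraries were lower with no overlap. For Bcl2l1 to Bax, which rose by like amounts, the ratios were 0.22 and 0.36 against 0.34 and 0.17, and the groups overlapped. The log2 ratios of Mcl1 to Pmaip1, Bcl2l11 and Bbc3 were higher in shUSP9X by 0.26, 0.29 and 0.28, without overlap for any of these pairs in counts. With the GC content and length correction the difference turned to -0.25 for Mcl1 to Pmaip1, was 0.11 for Mcl1 to Bcl2l11 and 0.33 for Mcl1 to Bbc3. Without shCtrl replicate 1 the differences for Pmaip1 and Bcl2l11 were 0.13 and 0.17, and for Bbc3 the difference was 0.15 without shCtrl replicate 2 or without shUSP9X replicate 2. In FPKM the groups overlapped for Mcl1 to Bcl2l11 (0.20). With 2 libraries against 2, an exact two-sided permutation test cannot go below p = 0.333, so no ratio was tested.

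The stretches before the start sites of Bax and Bcl2, an effector and an inhibitor that moved in opposite directions, are shown for their base composition and motif matches, and no link between these letters and the changes was tested. They are the 250 bases upstream of the RefSeq start (GRCm38.p6, minus strand in both cases, so printed 5′ to 3′ toward the gene). The Bax window is chr7:45466899-45467148, with 54.0% GC, and its capitals mark the p53 half-site that a search for that motif found 201 bases before the start. The Bcl2 window is chr1:106714291-106714540, with 74.8% GC, and its capitals mark 7 GC boxes (GGGCGG or its reverse complement CCGCCC).
Bax: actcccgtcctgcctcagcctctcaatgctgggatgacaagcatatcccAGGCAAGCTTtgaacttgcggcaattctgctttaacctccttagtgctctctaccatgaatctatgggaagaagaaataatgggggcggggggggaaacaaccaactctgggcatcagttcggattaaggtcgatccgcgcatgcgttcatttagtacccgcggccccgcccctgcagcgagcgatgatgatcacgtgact
Bcl2: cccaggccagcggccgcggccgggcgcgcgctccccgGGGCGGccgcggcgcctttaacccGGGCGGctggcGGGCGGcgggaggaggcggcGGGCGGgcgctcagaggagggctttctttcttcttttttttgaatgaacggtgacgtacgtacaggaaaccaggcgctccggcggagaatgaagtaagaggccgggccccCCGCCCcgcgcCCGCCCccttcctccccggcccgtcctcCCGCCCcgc

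Promoter windows were at hand for 9 members (15 windows, counting alternative starts, from RefSeq), and each motif was searched on both strands. The GC box GGGCGG lay in 10 of the 15 windows, beside 32.7% of 32851 windows of the same length. The 10 windows belong to 7 members (Bad, Bax, Bbc3, Bcl2, Bcl2l11, Bid and Mcl1), and no window of Bak1 or Bcl2l1 held it. The E-box CACGTG lay in windows of Bax and Bbc3 (6.02% of all windows), the p53 half-site in that of Bax (7.13%), and the interferon response core in no member's window (2.98%). These are matches of letters and not measured binding sites, and members with a GC box were called in both directions.

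The wider family held 16 further symbols, of which 15 were in the table and 8 were tested. Of the 8, 3 were called lower, 3 higher and 2 were not called, with a median log2 change of -0.02. This median had no stable direction, with 0.46 in DESeq2, 0.47 with no filter on low counts, -0.21 with at least 10 counts in every library and -0.28 on log2(FPKM + 1). The mitophagy receptors Bnip3 and Bnip3l, also known as genes induced by hypoxia, fell the most. Bnip3 had 24.9 and 26.1 CPM in shCtrl and 5.57 and 5.58 CPM in shUSP9X, a log2 change of -2.19 (SE 0.13, adjusted p 3.7e-14). Bnip3l had 131 and 126 against 55.5 and 56.8 CPM, a log2 change of -1.19 (SE 0.05, adjusted p 1.67e-16). Both kept their direction with the GC content and length correction, at -1.75 and -0.62. Bnip3l no longer ranked second there, since Bmf was at -0.67 with the correction.

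Bmf, a BH3-only gene, had 11.5 and 10.1 CPM in shCtrl and 7.74 and 6.35 CPM in shUSP9X (log2 change -0.61, SE 0.16, adjusted p 0.00151), and was not called on log2(FPKM + 1) (adjusted p 0.221). Bok, a further effector-type gene, rose by 0.25 (adjusted p 2.89e-04), a change of 0.03 after the GC content and length correction (adjusted p 0.659). The homologues Bcl2l12 and Bcl2l13 rose by 0.66 (adjusted p 0.00212) and 0.17 (adjusted p 0.00476), and Bcl2l12 lost its call with the correction (0.35, adjusted p 0.0839). Bcl2l12 was not called without shUSP9X replicate 1 (0.49, adjusted p 0.0761), nor Bcl2l13 without shUSP9X replicate 2 (0.14, adjusted p 0.0956) or on log2(FPKM + 1) (adjusted p 0.0518). With the GC content and length correction Bcl2l13 was at 0.41 (adjusted p 2.74e-08). Bcl2l2, which encodes the anti-apoptotic BCL-W, had a log2 change of -0.20 (adjusted p 0.0762), which passed without shCtrl replicate 2 (-0.26, adjusted p 0.0397) or shUSP9X replicate 1 (-0.33, adjusted p 0.02), with library size scaling (adjusted p 0.0431), on log2(FPKM + 1) (-0.31, adjusted p 0.0136) and log2(FPKM + 0.1) (-0.33, adjusted p 0.0133), and with the correction (-0.32, adjusted p 0.00704). Bcl2l15, with at most 16 counts in a library, had a log2 change of 0.85 (SE 0.55, adjusted p 0.173). It passed with the correction (1.24, adjusted p 0.0468), but not with the correction and the replicate block together (1.24, adjusted p 0.0734).

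The A1 genes Bcl2a1a, Bcl2a1b and Bcl2a1d, near-identical anti-apoptotic copies known from leukocytes, had no counts in shCtrl. In shUSP9X they had 5 and 4, about 3 and 6, and 5 and 3 counts, at or little above the floor of 3 counts taken per library, and were too low to be tested. How reads were divided among these copies is uncertain. Hrk counts were 1 and 0 (shCtrl) against 4 and 0 (shUSP9X). Bcl2l10, Bik and Bcl2l14 had 0 counts in all 4 libraries, which allows a level of up to 0.152 to 0.19 CPM.

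**Figure D4:**
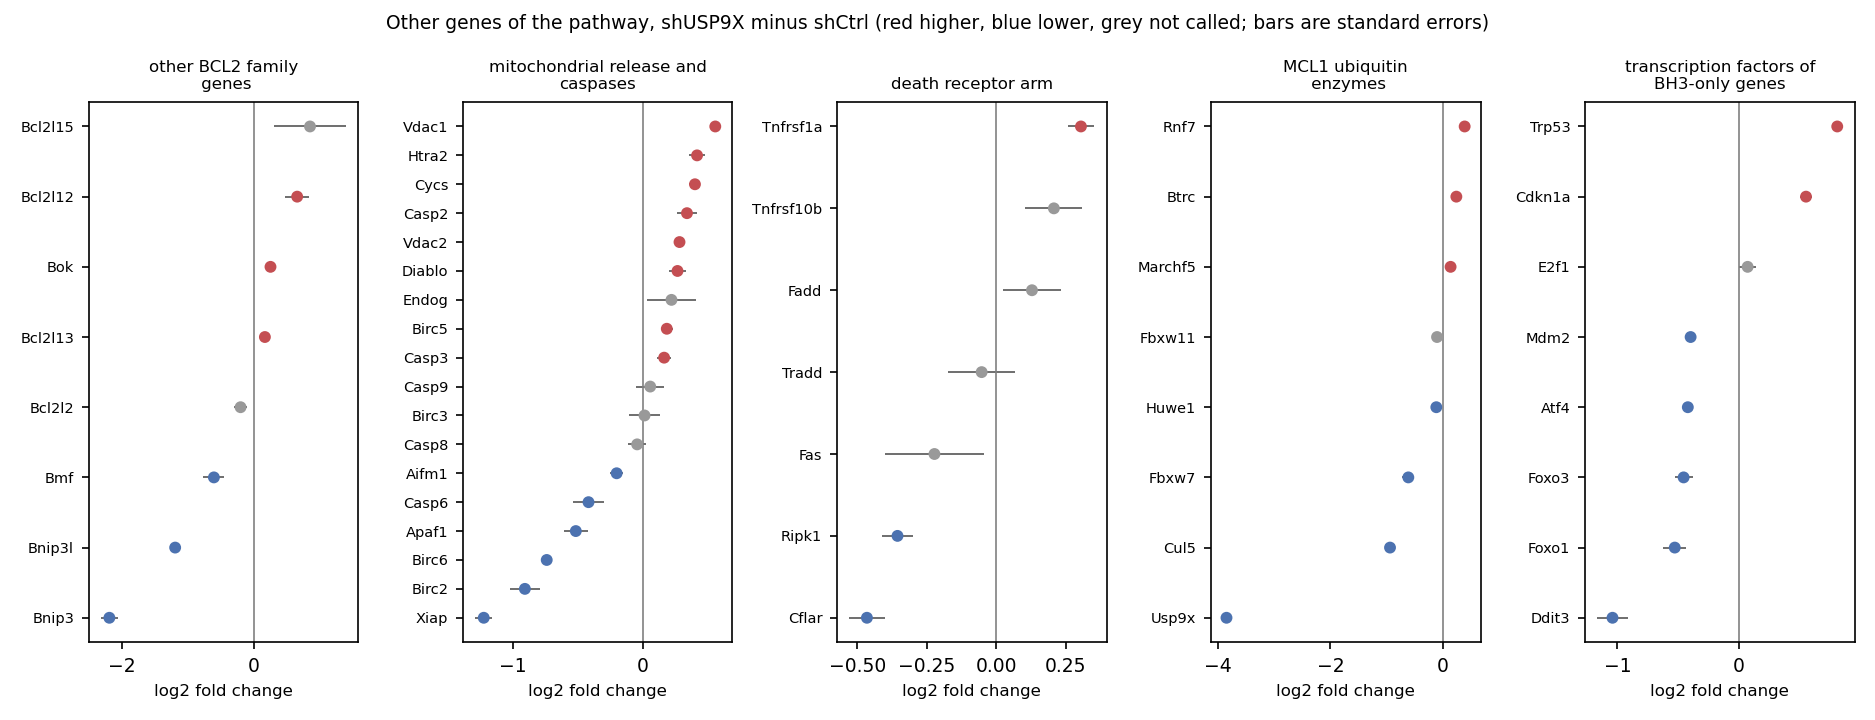
Log2 fold change, shUSP9X minus shCtrl (horizontal axes, scales differ between panels), of tested genes in 5 lists around the family, with standard errors as bars, called higher in red, called lower in blue and not called in grey. Bnip3, Usp9x and Xiap have the lowest values of their panels (-2.19, -3.85 and -1.23), and Xiap turns to 0.51 with the GC content and length correction.

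Downstream of the family, cytochrome c and APAF1 build the apoptosome that activates caspases, and IAP proteins such as XIAP hold caspases in check. Of the 19 genes in this list, all tested, 9 were called higher, 6 lower and 4 were not called, and the median log2 change was 0.16 (0.10 without shCtrl replicate 2 and 0.094 without shUSP9X replicate 2). Vdac1, an outer membrane channel, had 472 and 436 CPM in shCtrl and 679 and 657 CPM in shUSP9X (log2 change 0.56, adjusted p 8.06e-13, 0.35 with the GC content and length correction). Xiap, with 77.0 and 79.5 against 32.4 and 34.6 CPM, had a log2 change of -1.23 (adjusted p 9.68e-15) that turned to 0.51 with the GC content and length correction. Birc6, a very large IAP gene, turned likewise from -0.74 (adjusted p 2.72e-14) to 0.55. Birc2 fell by 0.91 (adjusted p 1.12e-07) and was at -0.50 with the correction. Of the other inhibitors in the list, Birc5 rose by 0.18 (adjusted p 0.00121) and Birc3, at 0.01, was not called (adjusted p 0.939). Apaf1 had -0.52 (adjusted p 2.72e-05) and lost its call with the correction (-0.04, adjusted p 0.721).

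The death receptor arm reaches the family through caspase-8 and BID. Of its 7 genes, all tested, 1 was called higher, 2 lower and 4 were not called, with a median of -0.05 that turned to 0.069 without shUSP9X replicate 2 and to 0.065 with the GC content and length correction. Tnfrsf1a, the receptor for TNF, had a log2 change of 0.30 (adjusted p 3.6e-06) and 0.07 with the GC content and length correction (adjusted p 0.213). Cflar, which encodes the caspase-8 inhibitor c-FLIP, had -0.46 (adjusted p 4.48e-07) and Ripk1, an adaptor kinase, -0.36 (adjusted p 5.02e-06). Both turned with the correction, to 0.19 and 0.21.

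MCL1 protein is ubiquitylated by several ligases and spared by deubiquitinases. Of 11 symbols for these enzymes, 10 were in the table and 8 were tested, with 4 called lower, 3 higher and 1 not called, and a median of -0.11 that turned to 0.17 with the GC content and length correction. Usp9x, the target of the shRNA, is itself 1 of the 4 lower genes. Huwe1, the ligase known as MULE, had the highest CPM of the list, but less FPKM than Marchf5. The log2 change of Huwe1 was -0.12 (adjusted p 0.00478) and turned to 1.02 with the correction (adjusted p 1.05e-19). Fbxw7, the substrate receptor of an SCF ligase for MCL1, had 24.5 and 26.0 CPM in shCtrl and 16.9 and 16.0 CPM in shUSP9X, a log2 change of -0.61 (adjusted p 1.1e-05) that stayed negative with the GC content and length correction (-0.42). Cul5 had -0.94 (adjusted p 1.09e-12) and turned to 0.37 with the correction. Rnf7, the RING partner of CUL5, rose by 0.39 (adjusted p 1.17e-05), Btrc by 0.24 (adjusted p 0.0314) and Marchf5 by 0.14 (adjusted p 0.0106). Marchf5 was at -0.04 with the correction, where its adjusted p was 0.472. It was not called in DESeq2 (adjusted p 0.053), nor without shUSP9X replicate 1 (0.13). Btrc was at 0.57 with the correction (adjusted p 1.06e-05). It was not called in DESeq2 (adjusted p 0.176), with library size scaling (adjusted p 0.0575), nor with any 1 library left out (0.23 to 0.27).

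Factors known to switch on BH3-only genes and p53 feedback genes formed the last list. Of 9 symbols, 8 were tested, with 5 called lower, 2 higher and 1 not called, and a median of -0.41 (-0.19 with the GC content and length correction). Trp53, the tumour suppressor that induces Bax, Bbc3 and Pmaip1, had 169.6 and 177 CPM in shCtrl and 313 and 293 CPM in shUSP9X (log2 change 0.81, adjusted p 5.24e-15, 0.56 with the GC content and length correction). Cdkn1a, a p53 target that encodes p21, rose by 0.55 (adjusted p 5.47e-10) and was at 0.32 with the correction. Mdm2, which is also a p53 target and encodes the ligase that degrades p53, went the other way, from 141 and 142 CPM in shCtrl to 108 and 107 CPM in shUSP9X (log2 change -0.40, adjusted p 4.2e-08, -0.29 with the correction). Ddit3, the stress factor CHOP that induces Bcl2l11, had 18.7 and 19.6 CPM in shCtrl and 8.90 and 9.73 CPM in shUSP9X. Its log2 change was -1.04 (adjusted p 4.57e-08), and -1.37 with the correction. The symbol Ddit3 stands in 2 rows of the table, of which the other held at most 1 count. Atf4, which acts with Ddit3, fell by 0.42 (adjusted p 6.99e-11) and was at -0.69 with the correction, and Foxo3, an inducer of Bcl2l11 and Bbc3, by 0.46 (adjusted p 4.84e-06). Foxo1 had -0.53 (adjusted p 2.59e-05) and 0.18 with the correction (adjusted p 0.0903).

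Markers of the cell line and of other cells were read beside these results. Of 8 markers of ovarian surface epithelium, 7 were tested and Krt7 had at most 3 counts in any library. Krt8 went from 314 and 324 to 602 and 602 CPM and Krt18 from 391 and 372 to 600.4 and 592 CPM, and Vim, the most abundant of them, from 1906 and 1961 to 2565 and 2517 CPM. Wt1 and Msln fell by 0.52 and 0.47 on the log2 scale. With the GC content and length correction the log2 change went from 0.64 to 0.35 for Krt18 and from 0.39 to 0.17 for Vim. Krt8, Wt1 and Msln were then at 0.67, -0.68 and -0.70. Krt19 had a log2 change of 0.12 that turned to -0.15 with the GC content and length correction and was not called without shUSP9X replicate 1 (adjusted p 0.172), and Upk3b, at 0.05, was not called (adjusted p 0.342). The summed CPM of the 8 was 4313 and 4395 in shCtrl and 5332 and 5232 in shUSP9X.

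Of 12 leukocyte markers, 6 were tested and 5 were called higher, none lower. These 5 had 0 counts in both shCtrl libraries and passed the filter only through the shUSP9X libraries. A lower call was thus not possible for them, and their count says nothing on direction. The summed level of all 12 markers was 4.33 and 4.30 CPM in shCtrl and 16.6 and 16.3 CPM in shUSP9X. Almost all of the shCtrl sum was Cd68 (4.27 and 4.30 CPM), which was not called. The 10 BCL2 family members summed to 663 and 661 CPM in shCtrl and 765 and 759 CPM in shUSP9X. Itgam had counts of 0 and 0 (shCtrl) against 72 and 75 (shUSP9X), Adgre1 0 and 0 against 58 and 59, Ccr3 0 and 0 against 35 and 22, Ptprc 0 and 0 against 29 and 18, and Csf1r 0 and 0 against 17 and 13. Cd68, the most abundant, had 74 and 68 against 118 and 85 counts. The lymphocyte markers Cd3e, Ms4a1 and Nkg7 were at 0 in all 4 libraries, and Lyz2 and S100a8 had at most 2 counts. The part of these transcripts in the changes of the BCL2 family was not tested, and in bulk RNA fewer cells of a type and less RNA per cell cannot be told apart.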

How the data were processed

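The 10 members and all gene lists were chosen with earlier results of these data known, so no test over a list was made. The authors deposited 1 table with an estimated count per gene and library, not normalized, and FPKM values scaled by the authors for length and library size. The study's methods give the genome GRCm38 and StringTie with DESeq2. The submitters' processing notes name fastp 0.18.0, Bowtie2 2.2.8, HISAT2, StringTie 1.3.1 and RSEM, and the counting strand and annotation release are not given in the sources used here. Columns of other samples numbered 0, and the table holds no fold changes of the authors. The samples were grouped by the condition in their labels.

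The deposited counts (6.4% to 6.69% of a library's values not whole) were rounded, filtered with filterByExpr, scaled by TMM and tested in edgeR 4.0.16 (quasi-likelihood test, with limma 3.58.1 under R 4.3.3) on 11448 genes with Benjamini-Hochberg adjustment and no covariate. The common biological coefficient of variation was 0.0352. Replicates differed beyond sampling noise (chi-square per gene 3.35 in shCtrl and 2.23 in shUSP9X). The procedure was tested on simulated data. Intervals are 95% and cover no more than the spread between libraries, and 3 counts were taken as the floor of a library. Molecular identifiers are not described, so the floor covers counting error only.

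Genes named are the 10 members, Usp9x, every other family gene with over 3 counts in a library, up to 6 called genes with the largest change in each further list, and the 3 genes nearest in profile to the member with the largest change. Markers that were not called, members of the family lists at 0 counts, genes at 3 counts or fewer, Mdm2, Huwe1, Birc5, Birc3 and genes that overlap a member were named after their values were seen. Of the lists' genes, 2 are counted but not reported here. Alternatives were DESeq2 1.42.0, 3 other scalings (size factors of DESeq2, the upper quartile, library size alone), no filter, a minimum of 10 counts per library, limma on log2(FPKM + 1) and log2(FPKM + 0.1) where the mean FPKM reached 1, the replicate number as a block, an offset for GC content and length (loess fitted within a library, span 0.3), block and offset together, and each library left out. For the ratios, the offset and the left-out libraries were added after the values were seen. GC content, length (longest transcript) and coordinates came from GENCODE M21 (GRCm38) and covered 99.8% of the genes tested. Promoter windows came from RefSeq (GRCm38.p6).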

Additional observations from a re-analysis of the deposited data

How the results depend on the processing

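Log2 changes of Mcl1, Bcl2, Bcl2l1, Bax, Bak1, Bid, Bcl2l11 and Usp9x stayed called in the same direction in all 15 alternatives, from -1.53 to -0.89 for Bcl2 and from 0.95 to 1.20 for Bak1. With 2 libraries a group, a gene as low as Bbc3 had an interval wider than its change, and no level below 0.152 to 0.19 CPM could be read. Bad lost its call on log2(FPKM + 1) and log2(FPKM + 0.1) (0.23 and 0.24) and with the offset for GC content and length, alone or beside the block (0.10 in both). Bbc3 gained a call in these settings (-0.44, -0.61, -0.58 and -0.58), and without the first shCtrl library (-0.63), with -0.63 to -0.34 over libraries left out. Pmaip1 lost its call with the offset (0.0025, and 0.0032 with the block). The offset and the block with it turned Xiap (0.51, 0.51), Birc6 (0.55, 0.55), Cflar (0.19, 0.19), Ripk1 (0.21, 0.21), Cul5 (0.37, 0.37) and Krt19 (-0.15, -0.15). Marchf5 (-0.036 in both) and Foxo1 (0.18, 0.18) changed sign there but were no longer called. With the offset 1337 genes, or 1323 with the block, were lower at the study's cutoff, beside 2143. The cause of these shifts was not tested.

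The median of the 10 members was 0.11 with upper quartile scaling, -0.0074 and -0.0046 on the 2 FPKM scales and 0.036 to 0.10 over libraries left out. The median of the other family genes was 0.46 in DESeq2 and 0.47 with no filter, where more low genes enter, -0.21 with at least 10 counts, -0.28 and -0.33 on the FPKM scales, and -0.14 and -0.15 with the offset. For the mitochondrial list it was 0.20 with upper quartile scaling and 0.094 to 0.16 over libraries left out, and for the death receptor arm 0.065 with either offset and -0.071 to 0.069. For the MCL1 enzymes it was -0.094 in DESeq2, -0.077 with upper quartile, -0.14 with library size, -0.092 with no filter, -0.12 with at least 10 counts, -0.10 on both FPKM scales, 0.17 with either offset and -0.11 to -0.1 over libraries left out. For the factors of BH3-only genes it was -0.39 in DESeq2, -0.38 with upper quartile, -0.44 with library size, -0.39 with no filter, -0.38 on log2(FPKM + 1) and -0.19 with either offset. The log2 ratio of Bcl2l1 to Bad, level in counts, differed by 0.17 in FPKM, and the summed anti-apoptotic and effector members by -0.14 and 0.84 in CPM. In settings chosen after the values were seen, the offset gave differences of log2 ratio of -1.12 for Bcl2 to Bax, -1.20 for Mcl1 to Bak1, 0.11 for Mcl1 to Bcl2l11 and 0.067 for Bcl2l1 to Bad, and turned Mcl1 to Pmaip1 (-0.25).

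The correlation of same-numbered deviations from the group means was -0.0453 across genes. With 2 libraries a group both pairs give the same value by construction, so it cannot decide whether the replicate numbers pair the libraries. With the replicate block, 4 members were lower and 5 higher, Bcl2 was at -1.41, the adjusted p of Bbc3 was 0.0816, and no call of a member or of a named pathway gene changed. The block gave 3810 genes lower and 3855 higher over all genes tested.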
